A study of Mus musculus with 22 samples.

Results

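Genes that shape or build the mitochondrial inner membrane were followed in mouse hearts lacking the transcription factor Ronin. The 9 genes were Immt, Chchd3, Chchd6, Micos13, Apool, Opa1, Letm1, Coa3 and Timm21, out of 19057 genes with a named probe, and 22 probes on the array named 1 of them. They were selected on the knockout minus control differences of these same hearts, as genes with lower values to set against Chchd6, which had higher values. Their differences between knockout and control are therefore given as a description, with no p-value, and where the number past a threshold is counted it supports nothing.

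The study hybridized heart RNA of C57BL/6 mice, 22 samples in 10 groups, to the Illumina MouseWG-6 v2.0 array. Controls carried Cre and RoninloxP/+, so that 1 floxed allele of Ronin was present in every control, and knockouts carried Cre and RoninloxP/loxP. With Nkx2.5::Cre, which acts in early cardiac progenitors, hearts were taken at E9.5 (2 control and 2 knockout arrays, each a pool of 10 hearts) and at E11.5 (3 and 3). With αMHC::Cre, which acts in cardiomyocytes, hearts were taken at E11.5, at birth (P0) and at 6 weeks (2 and 2 each). The genotype field of the αMHC::Cre knockout records names Nkx2.5::Cre, and the titles were followed here. Whole hearts were used, so cells that Cre did not reach remained in every knockout sample, and in such bulk RNA fewer cells of a type cannot be told apart from less RNA per cell.

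The inner membrane of the mitochondrion folds into cristae, which carry the respiratory chain and join the flat boundary membrane at narrow cristae junctions. The MICOS complex (mitochondrial contact site and cristae organizing system) holds these junctions open, Opa1 fuses inner membranes and narrows the junctions, and the TIM23 translocase and the assembly factors of cytochrome c oxidase bring in and mount new proteins. Heart muscle is packed with mitochondria whose cristae are dense, and such genes are accordingly well expressed there.

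Ronin itself, encoded by Thap11, was lower in knockout than in control arrays of all 5 comparisons, with no overlap of the groups in any of them. At 6 weeks its intensity was 1456 and 1438 in the controls against 289.9 and 772.5 in the knockouts, while at E9.5 it was 3658 and 3555 against 3116 and 1940. The mean log2 difference over the 5 comparisons was -0.74 (two-sided exact permutation within comparisons, p = 7.72e-05, the smallest that 25920 assignments allow). All 15 cardiomyocyte markers matched on the array were brighter than the median probe in every group, so the tissue label held. The median probe lay between 58.1 and 107.6 by comparison and was alike within each, and the root mean square SD of a group was 0.127 to 0.328 in log2 units.

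Coa3, Timm21 and Letm1 had lower values in the knockouts of every comparison, and Chchd6 had higher values in the knockouts of every comparison except at P0, where the groups overlapped. The mean of Micos13 lay below that of its controls by less, with groups that overlapped at E9.5 and at P0. Immt, Opa1 and Apool followed no common direction. Chchd3 could not be followed, because its only probe lay below the median probe of the array in all 5 comparisons. Lower values in all 5 comparisons without overlap were thus seen for 3 of the 9, as for 0.394% of the 9896 genes tested in all of them, and nothing is read from this count of genes selected on these values. The values of Opa1 in the embryos ran the other way.

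**Figure D1:**
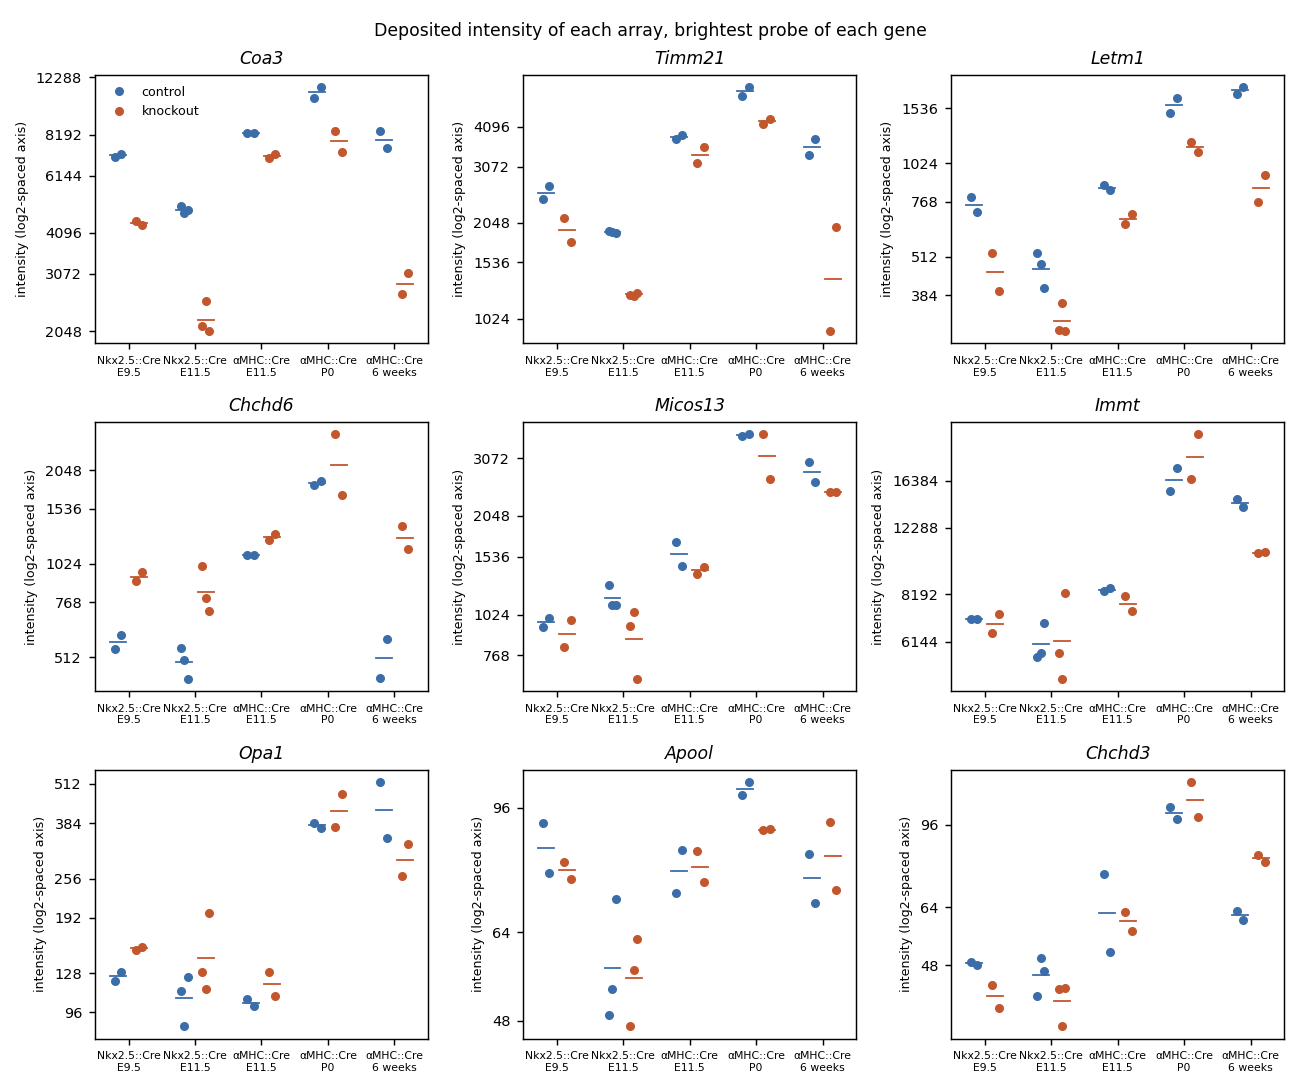
Deposited intensity of each array (log2-spaced y axes, which differ between panels) for the brightest probe of each of the 9 genes, with control arrays in blue, knockout arrays in orange and lines at the mean of the log2 values. Knockout points lie below control points in all 5 comparisons for Coa3, Timm21 and Letm1 and above them in 4 comparisons for Chchd6, while the panels of Apool and Chchd3 span only values near the background of the array.

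The promoters of the members, which the rule did not use, were searched for the core of the motif bound by Ronin, which reads ACTACA, then any 2 bases, then TCCCAG (14 letters), on both strands. RefSeq promoters of GRCm38.p6, from 250 bases before an annotated start to 50 after it, were at hand for 8 of the 9 genes, Timm21 being the one without. For Immt, Opa1 and Chchd3 the start used lay further into the gene than its outermost start. The core was found in 4 of these 8 (Coa3, Letm1, Micos13 and Chchd3), and in 1.03% of all 32851 promoters. A shorter core that ends after TCCC (12 letters) and overlaps the longer one was found in 5 of 8, Chchd6 being the addition, and in 1.81% of all promoters. The matches of the longer core are shown beside that of Chchd6, which held the shorter core and not the longer one. Each stretch reads 5′ to 3′ on the strand of the gene, with the match in capitals.
Coa3, chr11:101278993-101279022, minus strand: ccacgtggACTACAGCTCCCAGagttcctt
Letm1, chr5:33782853-33782882, minus strand: ggcgcacgCTGGGACTTGTAGTcgggagag
Micos13, chr17:56609876-56609905, minus strand: gcctccagACTACATTTCCCAGgagccttc
Micos13, chr17:56609740-56609769, minus strand: cagcgaccACTACATTTCCCAGgagtctca
Chchd3, chr6:33060477-33060506, minus strand: ctgtcaagACTACAACTCCCAGaatgctcg
Chchd6, chr6:89595686-89595713, minus strand: aatgctggACTACAAATCCCacagggca

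The match of Coa3 began 66 bases before the start of the gene, that of Chchd6 53 bases before it and that of Letm1, which lies in the reverse orientation, 157 bases before it. Micos13 held 2 copies with the same 14 letters, 1 beginning 126 bases before the start and 1 beginning 10 bases after it, and its values differed less between knockout and control than those of Coa3 and Letm1. The consensus that the study names for Ronin, of 13 letters, was found in the same 5 of 8, Chchd6 included, and in 2.27% of all promoters. By that form Chchd6 is not set apart from Coa3, Letm1 and Micos13. Chchd3 held a further match of the shorter core, beginning 158 bases before the start used. Letm1 held a further match of the consensus, beginning 114 bases before its start. Immt, Opa1 and Apool held none of the 3 forms in this window. A match is a run of letters and is no evidence of binding, and its absence says only that these letters are not in this window.

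Coa3, formerly Ccdc56, is a small inner membrane protein that holds newly made Cox1 during the assembly of cytochrome c oxidase. In Nkx2.5::Cre hearts at E9.5 its intensity was 7006 and 7173 in the controls and 4472 and 4329 in the knockouts. At E11.5 it was 4941, 4729 and 4807 against 2124, 2530 and 2048. The gap between the groups was wider than the spread within them at both ages, and the log2 fold changes (knockout minus control, with the standard error of the fit) were -0.69 ± 0.09 and -1.12 ± 0.11.

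In αMHC::Cre hearts the Coa3 intensity was 8315 and 8302 in the E11.5 controls and 6951 and 7129 in the knockouts, a log2 fold change of -0.24 ± 0.08. At P0 it was 10610 and 11490 against 8436 and 7240 (-0.50 ± 0.12), and at 6 weeks 8388 and 7465 against 2658 and 3084 (-1.47 ± 0.16). The mean intensity of the 6-week knockouts was 36.2% of that of their controls, the lowest share that any of the 8 members bright enough to be fitted reached in any comparison. The dimmer Coa3 probe gave log2 differences of -0.86, -1.10, -0.22, -0.54 and -1.24 in the same order of comparisons, and both probes thus pointed one way throughout.

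Timm21 is a subunit of the TIM23 translocase that faces the intermembrane space, and in human cells it also meets Coa3 on assembly intermediates of the respiratory chain. Its 4 probes were all brighter than the median probe in all 5 comparisons, and all 20 differences were below 0, the 4 at 6 weeks running from -0.86 to -1.72. On the brightest probe the Nkx2.5::Cre E11.5 controls read 1934, 1912 and 1903 and the knockouts 1217, 1207 and 1236 (log2 fold change -0.65 ± 0.17), so that each group was tight and the groups were well apart. At E9.5 the controls read 2426 and 2669 and the knockouts 2111 and 1784 (-0.39 ± 0.14).

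In αMHC::Cre hearts the Timm21 controls read 3752 and 3846 against 3143 and 3535 at E11.5 (-0.19 ± 0.13, and -0.10 without knockout 1), and 5112 and 5467 against 4189 and 4337 at P0 (-0.31 ± 0.19). At 6 weeks they read 3338 and 3760 against 934.4 and 1991, a log2 fold change of -1.38 ± 0.25. The knockout arrays of 6 weeks stood further from each other than in any other group of this gene, and both lay below both controls. The value was -0.83 without knockout 1 and -1.92 without knockout 2.

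Letm1 spans the inner membrane and takes part in the exchange of cations for protons, on which mitochondrial volume and cristae shape depend. Its intensity at E9.5 was 796.5 and 711.6 in the controls and 524.9 and 395.9 in the knockouts (log2 fold change -0.72 ± 0.13). At E11.5 with Nkx2.5::Cre it was 524.7, 484.2 and 404.5 against 297.3, 362.2 and 294.4 (-0.57 ± 0.16). With αMHC::Cre it was 871.2 and 838.4 against 650.7 and 702.4 at E11.5 (-0.34 ± 0.12), 1487 and 1662 against 1195 and 1108 at P0 (-0.45 ± 0.18), and 1716 and 1804 against 768.6 and 937.4 at 6 weeks (-1.05 ± 0.23). The knockouts lay below the controls without overlap in each comparison. The result rests on 1 bright probe, since the other 3 Letm1 probes never exceeded a mean intensity of 107.7, where the median probe itself lay between 58.1 and 107.6. With the mean of the 4 probes the log2 fold changes were -0.28, -0.26, -0.12, -0.14 and -0.40 in the same order.

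Chchd6, a twin-cysteine protein of the intermembrane space known as Mic25, binds Immt within MICOS. It was brighter in knockout hearts, with 543.4 and 602.6 in the E9.5 controls against 897.8 and 964.6 in the knockouts (log2 fold change 0.70 ± 0.14), and 548.7, 501.1 and 436.2 against 1008, 793.5 and 720.8 at Nkx2.5::Cre E11.5 (0.76 ± 0.18). In αMHC::Cre hearts at E11.5 the controls read 1095 and 1090 and the knockouts 1224 and 1273 (0.19 ± 0.13). At P0 1 knockout array read 2672 and the other 1702, on either side of the controls at 1833 and 1887 (0.20 ± 0.19), and the value was -0.13 without knockout 1 and 0.52 without knockout 2.

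At 6 weeks the Chchd6 controls read 438.5 and 586.7 and the knockouts 1354 and 1138. The log2 fold change was 1.29 ± 0.25, and the knockout mean was 243.2% of the control mean. Both knockouts stood well above both controls. The gene has a single probe on the array, so no further probe bears on its direction.

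**Figure D2:**
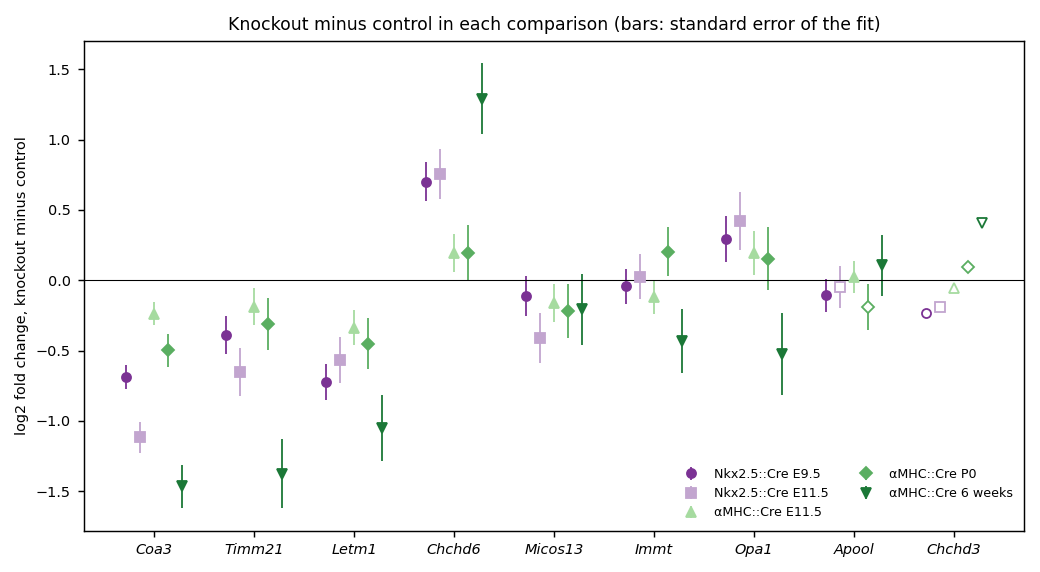
Log2 fold change, knockout minus control, of the 9 genes (x axis) in the 5 comparisons (symbols), with bars for the standard error of the fit; open symbols mark values of probes below the median probe, and Chchd3 has no bar because it was not fitted. Coa3 ranges from -0.24 to -1.47 and Chchd6 from 0.19 to 1.29, and in both the values of αMHC::Cre at E11.5 are the smallest in size.

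Micos13, formerly Qil1, joins the branches of MICOS to each other and is needed for mature cristae junctions. Its differences were small and all below 0, with log2 fold changes of -0.11 ± 0.14 at E9.5, -0.41 ± 0.18 at Nkx2.5::Cre E11.5, -0.16 ± 0.13 at αMHC::Cre E11.5, -0.22 ± 0.19 at P0 and -0.21 ± 0.25 at 6 weeks. At E9.5 the groups overlapped, with 935.6 and 1002 in the controls and 814.6 and 985.1 in the knockouts, and without knockout 1 the value was 0.02. At Nkx2.5::Cre E11.5 the controls read 1260, 1096 and 1094 and the knockouts 943.7, 1042 and 651.5, and without knockout 3 the value was -0.21. In αMHC::Cre hearts at E11.5 it was -0.04 without control 1 and -0.29 without control 2, and at 6 weeks -0.11 without control 1. At P0 1 knockout array equalled the controls (3638 against 3606 and 3635) and the other read 2663. The value was 0.01 without the latter and -0.44 without the former. The standard errors at E9.5, P0 and 6 weeks were as large as the differences or nearly so.

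Immt, or Mic60, is the core scaffold of MICOS, and its bright probe averaged 6105 to 17670 over the arrays of a comparison. Its knockouts and controls overlapped at E9.5, at Nkx2.5::Cre E11.5 and at P0, where the log2 fold changes were -0.04 ± 0.13, 0.02 ± 0.16 and 0.20 ± 0.17. In αMHC::Cre hearts at E11.5 the controls read 8342 and 8520 and the knockouts 8092 and 7410 (-0.12 ± 0.12). At 6 weeks the controls read 14640 and 13930 and the knockouts 10530 and 10600 (-0.43 ± 0.23), which are groups without overlap. The other 3 Immt probes had mean intensities of 150.0 or less and gave -0.16, 0.00 and 0.03 at 6 weeks, so that the difference at this age was seen on the bright probe alone.

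Opa1, the dynamin-like GTPase of inner membrane fusion, was higher in knockout than in control arrays at E9.5, with 121 and 129.5 against 152.1 and 155 (log2 fold change 0.30 ± 0.16), and in αMHC::Cre hearts at E11.5, with 105.8 and 100.4 against 128.7 and 108.2 (0.20 ± 0.16). At Nkx2.5::Cre E11.5 (0.42 ± 0.21) and at P0 (0.15 ± 0.22) the groups overlapped. Without knockout 3 the value at Nkx2.5::Cre E11.5 was 0.19 and without control 2 it was 0.28. At αMHC::Cre E11.5 it was 0.07 without knockout 1 and 0.32 without knockout 2, and at P0 -0.02 without knockout 2 and 0.33 without knockout 1. At 6 weeks the order was turned, with 519.8 and 344.6 in the controls and 261.6 and 330.5 in the knockouts (-0.53 ± 0.29). The 6-week value was -0.23 without control 1 and -0.82 without control 2. The probes disagreed: for E9.5, αMHC::Cre E11.5 and 6 weeks, 1 of the dimmer probes gave 0.07, 0.06 and -0.48 and the other -0.01, -0.02 and -0.01.

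Apool, or Mic27, a MICOS subunit that binds cardiolipin, and Chchd3, or Mic19, which ties Immt to the outer membrane, were measured close to the background of the array. The brighter Apool probe averaged 56.04 to 95.55 and lay below the median probe at Nkx2.5::Cre E11.5 and at P0, and its log2 fold changes in the other comparisons were -0.11 ± 0.12, 0.02 ± 0.11 and 0.11 ± 0.21. At P0 the controls read 99.95 and 104.4 and the knockouts 89.21 and 89.52, below the level of the median probe. Apool lies on the X chromosome, and the Xist levels showed that the controls of αMHC::Cre at E11.5 were female (1888 and 1989) and the knockouts male (49.95 and 54.86). Sex and genotype cannot be told apart for any gene in that comparison. Xist was also unequal at Nkx2.5::Cre E11.5, with 659, 1018 and 47.02 in the controls and 694.7, 40.12 and 36.65 in the knockouts. At P0 it was 2244 and 91.55 against 347.5 and 72.11. At 6 weeks it was 57.49 and 555.8 against 58.52 and 688.9, in the order of the replicate numbers. The part of sex was not tested. Chchd3 read 48.77 and 48.12 against 43.61 and 38.89 at E9.5, and 62.72 and 60.13 against 82.92 and 80.02 at 6 weeks. Its mean lay below the median probe in every comparison, and its log2 differences ran from -0.23 at E9.5 to 0.41 at 6 weeks.

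**Figure D3:**
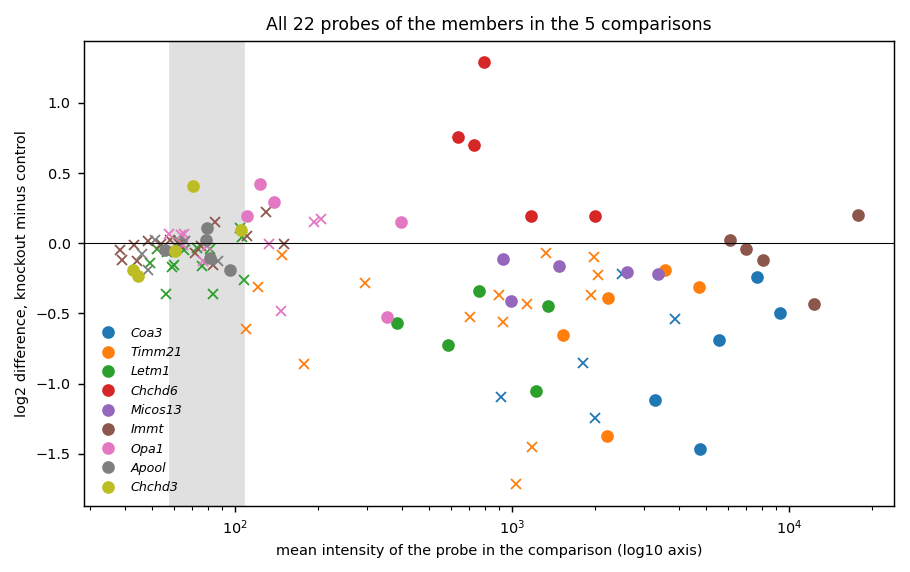
Log2 difference, knockout minus control, of each of the 22 probes in the 5 comparisons against the mean intensity of the probe (log10 axis), with dots for the probe that represents a gene and crosses for its other probes. The grey band spans the median probe of the 5 comparisons, from 58.1 to 107.6, and probes inside it or to its left scatter around 0, while the probes of Coa3 and Timm21 lie below 0 at every intensity.

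Counted together, 7, 6, 6, 5 and 6 of the 9 genes had a log2 fold change below 0 in the 5 comparisons from Nkx2.5::Cre E9.5 to αMHC::Cre 6 weeks. Their median was -0.11 at E9.5, -0.19 at Nkx2.5::Cre E11.5, -0.12 at αMHC::Cre E11.5, -0.19 at P0 and -0.43 at 6 weeks, where the median over all genes tested lay between -0.02 and 0.02 in every comparison and 47.8%, 53.9%, 52.4%, 50.9% and 47% of them were below 0. Over the tested members alone the medians were -0.11, -0.41, -0.14, -0.22 and -0.48. These shifts describe genes that were selected on the same differences. A gene was tested where its probe was brighter than the median probe, which held for 8, 7, 8, 7 and 8 members in turn.

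Past an adjusted p of 0.05 over all genes tested lay Coa3 and Letm1 (lower) and Chchd6 (higher) at E9.5, where 0.316% of 11713 genes were called lower and 0.179% higher. At Nkx2.5::Cre E11.5 Coa3 was called, beside 0.38% of 11827 genes lower and 0.11% higher. No member was called in αMHC::Cre hearts at E11.5, where the shares were 0.0084% lower and 0% higher, nor at P0, where both were 0% (limma, with 2 members at an unadjusted p under 0.05 in each of these comparisons). At 6 weeks Coa3, Timm21 and Letm1 were called lower and Chchd6 higher, beside 1.05% lower and 0.717% higher of 11708 genes. Because the genes were chosen by these contrasts, nothing is read from the counts. When the replicate number entered as a block, 4 members (Coa3, Letm1 and Timm21 lower, Chchd6 higher) were called at Nkx2.5::Cre E11.5 in place of 1. In that comparison the block fit called 1.99% of all genes lower and 2.15% higher.

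Groups without overlap were common on arrays with 2 or 3 samples a group. Of the tested members, 3 lay lower and 2 higher without overlap at E9.5, where 13.8% and 15.9% of all genes tested did. The counts were 4 and 1 at Nkx2.5::Cre E11.5 (8.57% and 4.14% of all), 5 and 2 at αMHC::Cre E11.5 (17.8% and 14.7%), 3 and 0 at P0 (15.7% and 14.6%), and 6 and 1 at 6 weeks (17.9% and 19.6%). Again the members were selected on these values, and the counts are given as a description.

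The size of the differences varied between comparisons. For Coa3 the log2 fold change at E11.5 was 0.88 ± 0.14 lower with Nkx2.5::Cre than with αMHC::Cre, and with αMHC::Cre it was 0.97 ± 0.20 lower at 6 weeks than at P0. For Timm21 these differences of log2 fold changes were -0.46 ± 0.22 and -1.07 ± 0.31, and for Letm1 -0.23 ± 0.21 and -0.60 ± 0.30. For Chchd6 they were 0.56 ± 0.22 and 1.09 ± 0.32. All 4 genes thus stood further from control with the early driver at E11.5 and at the later age with αMHC::Cre, with standard errors for Letm1 of a size with the first difference. Because the αMHC::Cre E11.5 controls were female and the knockouts male, sex cannot be told apart from genotype in the contrast of the drivers. Thap11 itself was also lower at 6 weeks (36.7% of control) than at P0 (75.2%), and its part in these differences was not tested.

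Among the 22 arrays, each value taken minus the mean of its own controls, Coa3, Timm21 and Letm1 ran together and Chchd6 ran in the opposite direction. Coa3 followed Letm1 (Pearson r = 0.911) and Timm21 (r = 0.896), and Chchd6 ran against Coa3 (r = -0.901), Timm21 (r = -0.861) and Letm1 (r = -0.844). Micos13 followed Coa3 less closely (r = 0.64), Immt went with Opa1 (r = 0.71), and Apool went with none of the others, its largest coefficient being -0.236 with Timm21. The arrays share genotype and comparison, and the genes were chosen by them, so these coefficients are a description.

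Of 9895 other genes bright in all 5 comparisons, those most like Chchd6 over the 22 arrays were Polr1a, which encodes the largest subunit of RNA polymerase I (r = 0.907), Tmem88 (0.904), a membrane protein that damps Wnt signaling in cardiac precursors, Lrrc51 (0.9), Fkbp11 (0.887) and Gfus (0.88), an enzyme of GDP-fucose synthesis. At 6 weeks their log2 fold changes ran from 0.64 for Polr1a to 1.38 for Fkbp11. They were less alike elsewhere, from -0.025 for Fkbp11 to 0.308 for Tmem88 at αMHC::Cre E11.5. At P0 they ran from -0.006 for Polr1a to 0.547 for Lrrc51. Those most like Micos13 were Stub1, a ubiquitin ligase that works with chaperones (r = 0.886), Med28, a Mediator subunit (0.874), Sharpin (0.872), Mrps25, a protein of the small mitochondrial ribosomal subunit (0.871), and Cmtm4 (0.866). Their log2 fold changes at Nkx2.5::Cre E11.5 lay between -0.46 and -0.25, and at E9.5 between -0.152 for Mrps25 and 0.115 for Sharpin.

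In control hearts, after quantile normalization of all arrays, the log2 level of each gene was followed over the ages. Each level belongs to its own probe, so it is set against other ages of the same gene only. Opa1 lay at 7.06 ± 0.065 (SD, n = 2) at E9.5, 7.12 ± 0.29 (n = 3) and 6.68 ± 0.046 (n = 2) at E11.5 with Nkx2.5::Cre and αMHC::Cre, 7.90 ± 0.033 at P0 and 8.93 ± 0.42 at 6 weeks, where the values of E9.5 and Nkx2.5::Cre E11.5 did not differ beyond their spread. Letm1 stood at 9.36 to 9.53 in the embryos and at 10.96 ± 0.055 at 6 weeks, and Micos13 at 9.87 ± 0.07 at E9.5 and 11.57 ± 0.12 at 6 weeks. Chchd6 was highest at P0 (10.23 ± 0.024) and had 9.15 ± 0.10 at E9.5 and 9.20 ± 0.31 at 6 weeks, which did not differ beyond their spread. Coa3 stayed between 12.72 and 12.98 in all 5 control groups. Age went with comparison, and the deposited medians were alike only within a comparison, so age cannot be told apart from the comparison.

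**Figure D4:**
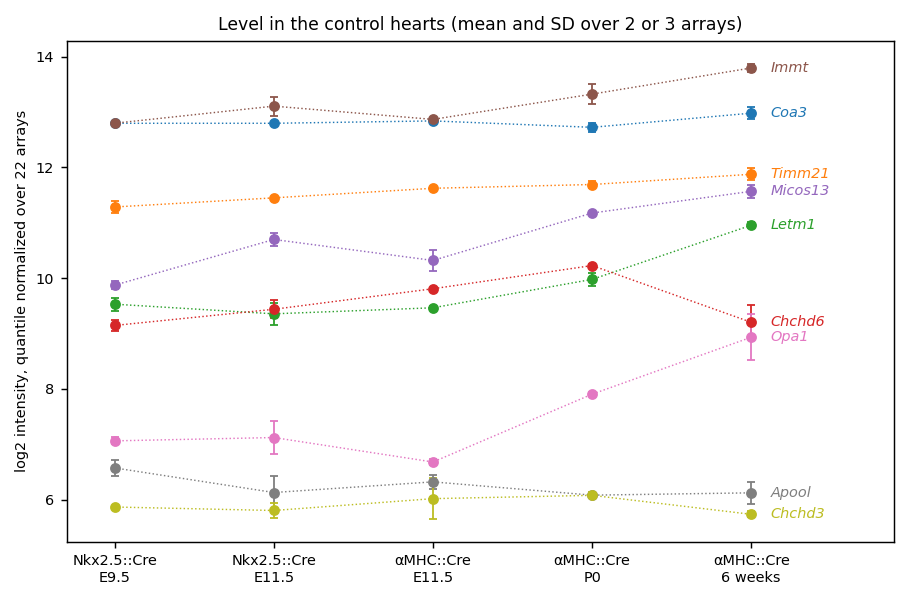
Log2 intensity of the 9 genes in the control hearts of the 5 comparisons after quantile normalization over all 22 arrays, as mean and SD of 2 or 3 arrays; dotted lines only join the points of a gene. Opa1 goes from 7.06 at E9.5 to 8.93 at 6 weeks, Chchd6 peaks at P0 with 10.23, and Coa3 stays between 12.72 and 12.98.

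The wider machinery around these genes was followed through 106 related genes with a probe, none of them a member, in 7 lists. Of the 96 to 100 tested in a comparison, 1 was called at E9.5, 2 at Nkx2.5::Cre E11.5, 0 at αMHC::Cre E11.5, 0 at P0 and 3 at 6 weeks (limma, adjusted p over all genes tested under 0.05). The numbers with an unadjusted p under 0.05 were 3, 9, 3, 3 and 12 in the same order. The share of all genes tested with such an unadjusted p was not counted, so no excess is read from these numbers. The same holds for the unadjusted counts of the members, the single lists, the marker lists and the differences between comparisons. Beside the shares of all genes called, given above, counts of 1 to 3 are too small to set the lists apart, and nothing particular to them is read from the counts. The median log2 fold change of the related genes lay between -0.03 and 0.00 in each comparison, where that of the 9 members lay between -0.43 and -0.11. Because the members were selected on these differences, nothing is read from that gap.

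Clpb, a chaperone of the intermembrane space that resolves protein aggregates, was called lower in the Nkx2.5::Cre knockouts at both ages. It read 190.7 and 198.7 in the E9.5 controls and 134.9 and 104.8 in the knockouts (log2 fold change -0.71 ± 0.12, adjusted p = 0.00683, limma), and 170.5, 175.8 and 176.8 against 97.01, 92.43 and 107.3 at E11.5 (-0.82 ± 0.15, adjusted p = 0.0129). The groups were apart at both ages. The result rests on the brightest of 5 Clpb probes: with the mean of the probes the values were -0.12 (adjusted p = 0.999) and -0.17 (adjusted p = 0.511). Over 11 alternatives at E9.5 and 13 at E11.5 the adjusted p ran from 0.000799 to 0.999 and from 0.0027 to 0.511. The call at E9.5 ended without control 1 (0.0872), control 2 (0.212) or knockout 2 (0.0852), and that at E11.5 without control 1 (0.0714), control 2 (0.0647), control 3 (0.107), knockout 1 (0.084) or knockout 2 (0.0732).

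Abcb8, a transporter of the inner membrane that serves mitochondrial iron export in the heart, fell at Nkx2.5::Cre E11.5, with 456.2, 402.7 and 580.2 against 242.3, 222.2 and 344.9 (log2 fold change -0.84 ± 0.18, adjusted p = 0.0381, limma). It also fell at 6 weeks, with 837.1 and 779.7 against 351.7 and 439.5 (-1.04 ± 0.26, adjusted p = 0.0443). No knockout array reached a control array in either comparison. Where it was not called, the log2 differences were -0.36 at E9.5, -0.16 at αMHC::Cre E11.5 and -0.09 at P0. Over the alternatives the adjusted p ran from 0.00143 to 0.375 at E11.5 and from 0.00446 to 0.752 at 6 weeks. The call at E11.5 ended without control 1 (0.153), control 3 (0.375), knockout 1 (0.16) or knockout 2 (0.239), and that at 6 weeks without control 1 (0.752), control 2 (0.242) or knockout 1 (0.378).

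Htra2, a serine protease of the intermembrane space, rose at 6 weeks from 757.6 and 757.2 in the controls to 1854 and 1492 in the knockouts (log2 fold change 1.13 ± 0.20, adjusted p = 0.00402, limma). Its other 2 probes gave 0.82 and 0.66. At the earlier ages, where the main fit did not call it, the brightest Htra2 probe gave 0.20 at E9.5 and 0.48 at Nkx2.5::Cre E11.5. In αMHC::Cre hearts it gave -0.03 at E11.5 and 0.39 at P0. Cox19, known in yeast as a copper-handling factor for cytochrome c oxidase, read 3603 and 3597 against 9239 and 5002 at 6 weeks (0.92 ± 0.23, adjusted p = 0.0498), at the very edge of the threshold. The knockouts lay above the controls in both genes. Over 11 alternatives each, the adjusted p ran from 0.000297 to 0.207 for Htra2 and from 0.000429 to 0.706 for Cox19. For Htra2 the call ended without either control array (0.143 and 0.0601) or without knockout 1 (0.0586), and for Cox19 the same 3 arrays gave 0.59, 0.273 and 0.706. The log2 fold change of Cox19 was 0.47 without knockout 1 and 1.36 without knockout 2.

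When the replicate number entered as a block, 5 related genes in place of 2 were called at Nkx2.5::Cre E11.5, 4 lower and 1 higher of 99 tested. That fit called 1.99% of all 11827 genes lower and 2.15% higher, and a count so near these shares is no result about the related genes. Beside Clpb (adjusted p = 0.00301, limma) and Abcb8 (0.00143), these were Tomm22, a receptor of the outer membrane translocase (log2 fold change -0.65 ± 0.16, adjusted p = 0.0308), Dnm1l, the GTPase of mitochondrial fission (-0.43 ± 0.11, adjusted p = 0.0362), and Htra2 (0.48 ± 0.12, adjusted p = 0.0357). Tomm22 read 2164, 2315 and 1927 in the controls and 1810, 955.2 and 1438 in the knockouts. Its groups were apart, although knockout 1 lay close to the controls.

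By list, the 12 MICOS partners of the members gave no call in any comparison (limma, 2 with an unadjusted p under 0.05 at αMHC::Cre E11.5 and 0 elsewhere). The lowest p values among them belonged to Apoo, or Mic26 (log2 fold change -0.20 ± 0.08, adjusted p = 1, limma) and Chchd10 (-0.27 ± 0.13, adjusted p = 1), both at αMHC::Cre E11.5, and Apoo, like Apool, is X-linked in a comparison of female controls with male knockouts. Apoo read 82.67 and 71.89 in these controls and 61.97 and 72.64 in the knockouts, groups that overlapped close to the median probe of 68.49. None of the 26 genes of the TIM23 and TIM22 translocases and the import motor was called, the lowest p values being those of Timm13 (-0.36 ± 0.12) and Pmpcb (-0.58 ± 0.19) at Nkx2.5::Cre E11.5, with an adjusted p of 0.295 each in the limma fit. Timm13 was dim there, with 92.27, 82.41 and 77.71 against 68.02, 65 and 63.61 and a median probe of 58.1. None of the 7 TOM genes was called without the block, with Tomm22 at an adjusted p of 0.195 and Tomm70a, the next, at 0.624 in that comparison (limma).

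Of the 13 genes of cardiolipin synthesis, whose product binds MICOS and Opa1, none was called, and the lowest p values were at 6 weeks for Lclat1 (log2 fold change -0.75 ± 0.24, adjusted p = 0.138, limma) and Taz, or tafazzin (-0.43 ± 0.19, adjusted p = 0.403). With equal array weights Lclat1 was called at 6 weeks, in a fit that called 602 genes in all. The 22 assembly factors of cytochrome c oxidase, the company of Coa3, gave 1 call, that of Cox19 at 6 weeks. The 17 genes of fusion, prohibitins and proteases gave the calls of Clpb and Htra2, and the 9 genes of the LETM and ion exchange list that of Abcb8.

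**Figure D5:**
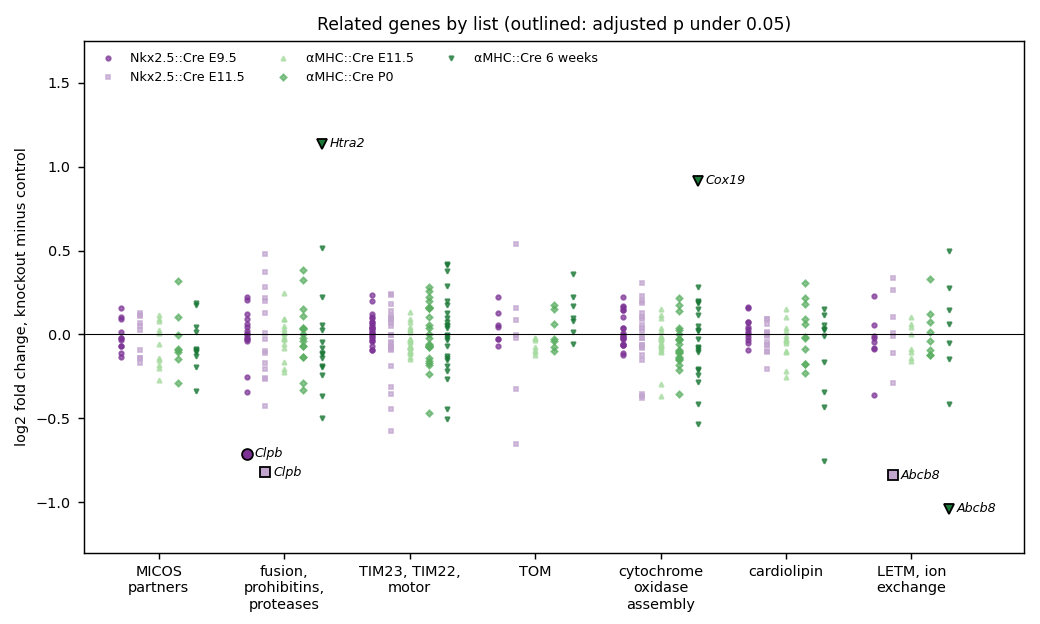
Log2 fold change, knockout minus control, of each tested gene of the 7 related lists (x axis) in the 5 comparisons (symbols); outlined and named are the genes with an adjusted p under 0.05 in limma. Clpb and Abcb8 lie between -0.71 and -1.04 and Htra2 and Cox19 at 1.13 and 0.92, while every other point lies between -0.75 and 0.54.

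No related gene differed past the threshold between the drivers at E11.5 (0 of 98 tested, limma, 8 with an unadjusted p under 0.05, against 0.0791% of all genes called), between the ages with Nkx2.5::Cre (0 of 97, 3 unadjusted, 0.018% of all) or between 6 weeks and P0 with αMHC::Cre (0 of 94, 6 unadjusted, 0.256% of all). Without knockout 2 of 6 weeks 1 related gene, Cox19, passed in the last of these. A difference between these comparisons was thus not shown for the called genes with all arrays in the fit.

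Marker lists of other cell types moved with some of these comparisons. At 6 weeks the summed intensity of 6 smooth muscle markers was 17010 to 19010 in the controls and 37650 to 61710 in the knockouts, and 1 of 5 tested was called higher, but 2 of the 5 were below 0 and the median log2 fold change was 0.18 (range -0.60 to 1.62). In the same hearts the 15 cardiomyocyte markers summed to 313100 to 359200 against 377600 to 412200 with no call (3 of 15 with an unadjusted p under 0.05, limma). At Nkx2.5::Cre E11.5 the 12 erythroid markers summed to 134300 to 179000 against 148000 to 228500, with 10 of 11 tested above 0, a median log2 fold change of 1.00 and none called (6 with an unadjusted p under 0.05, limma). In that comparison 7 of 8 fibroblast and matrix markers were above 0 (median 0.38) and 13 of 15 cardiomyocyte markers below 0 (median -0.17). In αMHC::Cre hearts at E11.5 the erythroid markers summed to 211700 to 213400 against 232900 to 262800, with 11 of 11 above 0 and a median of 0.57. There 7 of 8 fibroblast and matrix markers were below 0 (median -0.17). At 6 weeks 8 of 9 fibroblast and matrix markers were above 0, with a median of 0.19 and a highest value of 1.40. At 6 weeks 4 or 5 of the 12 erythroid and 2 of 6 epicardial markers were brighter than the median probe, so those lists were largely at background there. Their part in the values of the 9 genes was not tested.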

How the data were processed

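The RNA of 22 heart samples was measured on the Illumina MouseWG-6 v2.0 array. Intensity values were taken as deposited by the authors, who made them by cubic spline normalization in GenePattern. They are linear, with medians alike within a comparison only. A further table without normalization was left aside, since none of its 22 columns matches a sample label. Probe names came from the platform annotation (34885 of 45281 probes name 1 gene, 18 several, 10378 none). On arrays, precision follows from the number of arrays and signal over background.

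Values were taken to log2. A gene was represented by its brightest probe and tested in a comparison where that probe exceeded the median probe, and genes tested nowhere left before the fit. The fit used limma 3.58.1 under R 4.3.3, with 1 model of 10 group means (12 residual degrees of freedom), with array weights per comparison by statmod 1.5.0 (0.533 to 1.90) and trended empirical Bayes moderation, after a check on simulated data. Benjamini-Hochberg adjustment ran over the genes tested in a comparison, with a threshold of 0.05. Labels do not say whether samples of a group came from separate litters, so the p-values measure the spread between these samples.

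The members and the related lists were chosen with earlier results of these data known. Named are the 9 members, Thap11, related genes past the threshold (or the 2 with the lowest p of a list with none), the 5 genes most like Micos13 and the 5 most like Chchd6, and markers as lists. Dnm1l was named after its blocked value was seen. List genes that matched no probe name were not analysed here.

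Replicate numbers are shared by the groups. Deviations of same-numbered arrays from their group means correlated at 0.438, 0.613 and 0.52 in the 3 pairs of Nkx2.5::Cre E11.5. In the comparisons with 2 pairs they correlated at 0.024 to 0.355. An array's best partner had its own number in every comparison, and at 6 weeks Xist followed the numbers too. With 2 arrays a group both pairs share 1 correlation by construction. There a best partner of the same number means only that this correlation was above 0. The main fit nevertheless took the numbers as names throughout. Its standard errors, p-values and calls, also at Nkx2.5::Cre E11.5, are therefore those of unpaired arrays. Pairing entered only in the replicate block, an alternative that covered every comparison and left 6 residual degrees of freedom. Alternatives tried were quantile normalization over all arrays, scaling to the median, separate fits of each comparison, unweighted arrays, dim probes kept, averaging of the probes, the replicate block, leaving out single arrays, the methods' t-test, and other forms of the motif.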

Additional observations from a re-analysis of the deposited data

Results flagged for a closer look

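Opa1 moved in opposite directions without overlap of the groups, with log2 fold changes of 0.30 in Nkx2.5::Cre hearts at E9.5 and 0.20 in αMHC::Cre hearts at E11.5 against -0.53 in αMHC::Cre hearts at 6 weeks. The difference between these comparisons was not tested, because the gene was selected on these values, and its 3 probes gave -0.53, -0.48 and -0.01 at 6 weeks. Chchd3 likewise lay lower at E9.5 (-0.23) and higher at 6 weeks (0.41), in groups without overlap, on a probe below the median probe of the array in both comparisons. That difference was not tested either.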

How the results depend on the processing

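Coa3, Letm1 and Timm21 were below 0 in every comparison under each alternative run, 52 values a gene, while Chchd6 and Opa1 changed sign in 1 value each, Micos13 in 2, Chchd3 in 3, Immt in 6 and Apool in 7. These values are differences of group means. Separate fits, equal array weights and the replicate block cannot alter them and only repeat the main value, so they add nothing to this count. The median over the 9 genes at 6 weeks was -0.21 with the mean of the probes in place of -0.43. Leaving out 1 array gave medians of -0.22 to -0.15 at E9.5, -0.26 to -0.10 at Nkx2.5::Cre E11.5, -0.17 to -0.06 at αMHC::Cre E11.5, -0.22 to -0.020 at P0 and -0.47 to -0.23 at 6 weeks.

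Members called, 3, 1, 0, 0 and 4 in the same order, became 1 at E9.5 and 0 at 6 weeks with each comparison fitted alone, and 0 at E9.5 and 2 at Nkx2.5::Cre E11.5 with equal array weights. With the replicate number as a block 4 were called at Nkx2.5::Cre E11.5, in a fit that called 489 of 11827 genes in place of 58. At 6 weeks the block left the called members and related genes the same, while 527 genes were called in place of 207. With the mean of the probes Letm1 was not called at E9.5 or 6 weeks, nor at 6 weeks after quantile normalization. By the methods' t-test 4, 3 and 2 passed an unadjusted p of 0.05 at Nkx2.5::Cre E11.5, αMHC::Cre E11.5 and P0, and 0 passed after Benjamini-Hochberg at E9.5 and at 6 weeks. With 1 array left out the counts were 0 to 3, 1 to 2, 0 to 0, 0 to 0 and 1 to 4. At E9.5 Coa3 alone was called without control 1 or knockout 2 and none without control 2, and at 6 weeks Coa3 alone without control 1 or knockout 1, and Coa3 and Chchd6 without control 2.

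Related genes called, 1, 2, 0, 0 and 3, became 0 at E9.5, at Nkx2.5::Cre E11.5 and at 6 weeks in fits of each comparison alone, and 0 at E9.5 with equal array weights. The mean of the probes gave 0 at E9.5 and 1 at Nkx2.5::Cre E11.5, quantile normalization 1 at 6 weeks, and the replicate block 5 at Nkx2.5::Cre E11.5, among those 489 genes. Equal array weights gave 4 at 6 weeks, with Lclat1 added. By the methods' t-test the unadjusted counts were 4, 11, 1, 6 and 5, and after Benjamini-Hochberg 0 at E9.5, Nkx2.5::Cre E11.5 and 6 weeks. With 1 array left out they were 0 to 1, 0 to 2, 0 to 0, 0 to 0 and 0 to 4, and for the difference between 6 weeks and P0 0 to 1 (Cox19, without knockout 2 of 6 weeks). Thap11 ranged from -0.89 to -0.60. The motif counts of 4, 5 and 5 of 8 members came from the longer core, the shorter core and the named consensus, the last chosen after seeing the data. Where a group was left with 1 array, that array was assumed to vary like the other groups. Signal over background limits Apool and Chchd3, and groups of 2 or 3 arrays limit every call. Shares of all genes at an unadjusted p were not counted under any alternative, so no excess is read from the unadjusted counts.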

Other observations

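Within each comparison the knockout arrays differed in how much Thap11 remained. The knockout array with the least Thap11 had the lowest Coa3 and the lowest Letm1 of its group in 5 of 5 comparisons, for example 768.6 against 937.4 for Letm1 at 6 weeks, where Thap11 was 289.9 against 772.5. Timm21 was lowest in that array in 3 of 5 comparisons, with 934.4 against 1991 at 6 weeks. Chchd6 was highest in it in 2 of 5, at E9.5 and at 6 weeks, and at P0 the array with less Thap11 (2944 against 3238) had the lower Chchd6 (1702 against 2672). At Nkx2.5::Cre E11.5 the order of Letm1 rests on nearly equal values, 294.4 against 297.3. These orders were noticed after the values were seen, over groups of 2 or 3 arrays, and were not tested. The genes were selected on these same hearts, and how many of all genes share the orders was not counted.

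Among the related genes, the shorter core of the Ronin motif was found in the promoters of 7 of 89 with a RefSeq promoter, which were Chchd4, Clpb, Dnm1l, Higd2a, Mfn2, Phb and Timm22. It was found in 1.81% of all promoters. The longer core was found in 3 of the 89 (1.03% of all promoters) and the consensus in 6 (2.27%), and Clpb held neither. Genes are counted here, while the shares count promoters, of which a gene can have several.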
